A study of Rattus norvegicus with 12 samples.

Results

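The macrophage scavenger and lectin receptors described here are a set of 7 genes, Marco, Msr1, Mrc1, Clec7a, Clec10a, Chi3l1 and Trem2, followed across 4 groups of rats. Of these 7 genes, 5 had a probe set that named them and no other gene, and these 5 genes had 6 probe sets among the 31099 of the array. Mrc1, Clec7a, Clec10a and Chi3l1 had 1 probe set each and Trem2 had 2. Each gene is given by its probe set of highest mean, and the other probe set of Trem2 serves as a check. Marco and Msr1, which encode class A scavenger receptors, were named by no probe set in the annotation used and were not analysed here. All 5 measured genes passed the filter on low values.

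The series measured total RNA of the cells of bronchoalveolar lavage fluid (BALF), the cells washed out of the right lung with saline, from 8-week-old male Sprague-Dawley rats. The COMB rats received 0.5 mg/kg lipopolysaccharide (LPS), a wall component of gram-negative bacteria, into the tail vein and then stayed for 6 h in a decompression chamber at 405.35 mmHg, the equivalent of 5000 m altitude or 11.2% oxygen. The LPS rats received the same dose in normal air, the HPO rats had the chamber alone, and the CTL rats received saline in normal air. Each group had 3 arrays, 1 per RNA pool, and all rats were fasted without water during the experiment. The methods describe pools of 3 animals, whereas the labels of 2 COMB pools name only 2 rats each. The pools are called here by the rat numbers in their labels, which were taken as names within a group, since the sources used here do not say whether a number means the same rat in another group. The p-values measure the spread between these pools, in which the variation between single rats is already averaged.

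Receptors of this family let macrophages bind sugars, modified lipids, dead cells and microbes without help from antibodies, and carry them into the cell. The mannose receptor and the dectins are C-type lectins, which read sugar patterns on microbes and on host glycoproteins, whereas the class A scavenger receptors bind oxidised lipoproteins and other polyanions. In the airspaces they are best known from alveolar macrophages, the resident phagocytes that keep the alveoli clear. BALF also holds other cells, and in RNA of a mixed cell pellet, fewer cells of a type and less RNA per cell cannot be told apart.

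The labelled source was checked against markers first. None of the 10 measured genes of the macrophage and monocyte core list was below the 20th percentile on all 12 arrays, and the summed intensity of that list lay between 33876 and 38058 in COMB pools, 31951 and 37818 in LPS pools, 33508 and 37162 in HPO pools, and 33309 and 37189 in CTL pools. Lyz2, the lysozyme of macrophages, averaged 13979 ± 1093 units in COMB pools, 15073 ± 2197 in LPS pools, 15838 ± 1464 in HPO pools and 15139 ± 2100 in CTL pools (SD, n = 3 each). Single genes of the core list moved under this even sum: in COMB against CTL, 3 of the 10 were higher and 2 lower, with a median log2 fold change of -0.01. The mean of the log2 levels of its genes was not even. It was 10.29 to 10.38 in COMB pools, 9.94 to 10.14 in LPS pools, 9.73 to 9.83 in HPO pools and 9.60 to 10.06 in CTL pools. Cd14, the LPS co-receptor, rose 6.08-fold (limma adjusted p = 6.81e-05) and Cd74, the MHC class II invariant chain, 3.66-fold (limma adjusted p = 0.0132). Csf1r, the receptor of macrophage colony-stimulating factor, was at 473 ± 37.8 units in COMB pools against 784 ± 111 in CTL pools (limma adjusted p = 0.0029), and Aif1, an actin-binding macrophage protein, at 1298 ± 18.8 against 1810 ± 56.5 (limma adjusted p = 0.00128). The sums of other cell types differed between groups. The neutrophil list summed to 8503 to 15168 units in COMB pools, 3258 to 3942 in LPS pools, 989 to 1375 in HPO pools and 1273 to 4035 in CTL pools. The airway epithelium list summed to 27224 to 36421 units in COMB pools, 18065 to 20393 in LPS pools, 19842 to 20987 in HPO pools and 8133 to 11795 in CTL pools. The CTL pool of rats 5, 6 and 7 stood apart from the other CTL pools, with 4035 units for the neutrophil list against 1273 and 1296, with 5886 units for the recruited monocyte list against 2989 and 3191, and with 3319 units for the T and NK cell list against 628 and 1184.

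**Figure D1:**
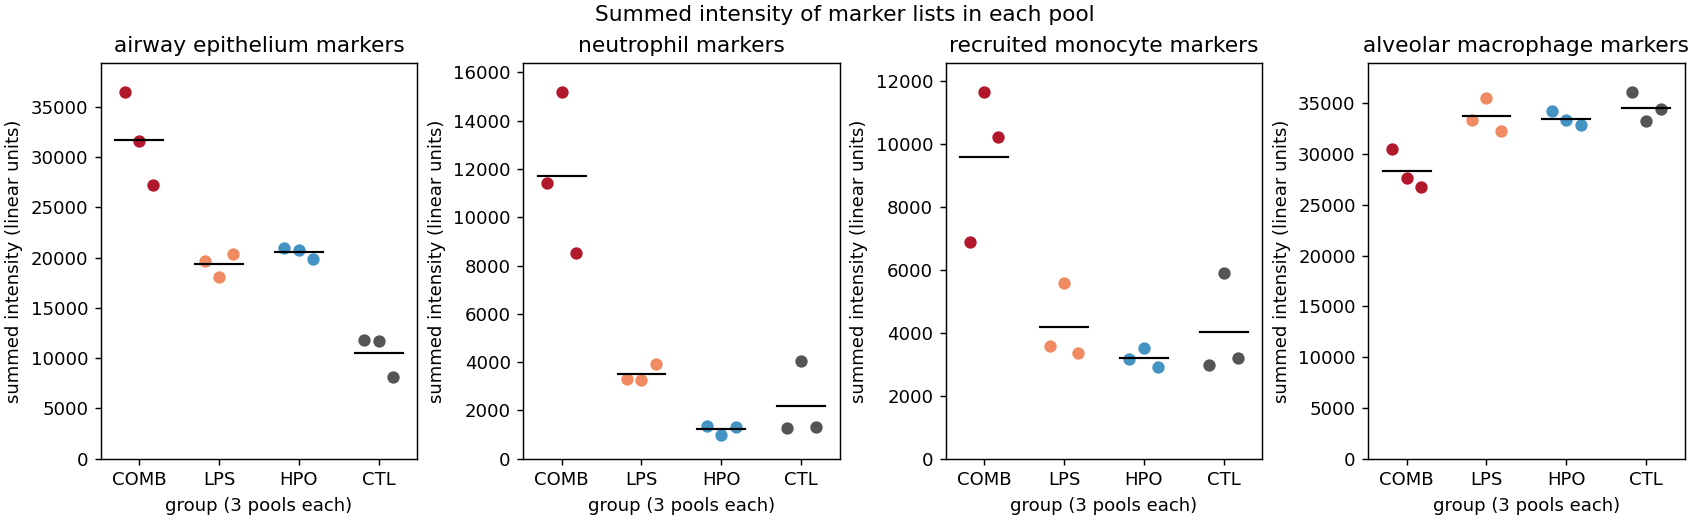
Summed intensity (linear units, y axis) of 4 marker lists in each of the 12 pools. Points are pools and lines are group means (n = 3 each). The airway epithelium, neutrophil and recruited monocyte sums were highest in COMB pools, and the alveolar macrophage sum was lowest there.

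Of the 5 measured members, Clec10a and Chi3l1 rose and Clec7a fell in COMB against CTL, and Mrc1 and Trem2 did not pass the test. Over all 25692 probe sets tested, 8.84% were higher and 10.2% lower in COMB against CTL, so calls were common in this comparison. In LPS against CTL, Clec10a alone among the 5 passed the test, as a rise, where 0.868% of all probe sets were higher and 1.18% lower. In HPO against CTL no member was called by limma, 0 had an unadjusted p under 0.05, and 0.035% of all probe sets were called in either direction. In COMB against HPO the same 3 members were called as in COMB against CTL and in the same directions, where 6.83% of all probe sets were higher and 8.75% lower. Both comparisons share the COMB pools.

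**Figure D2:**
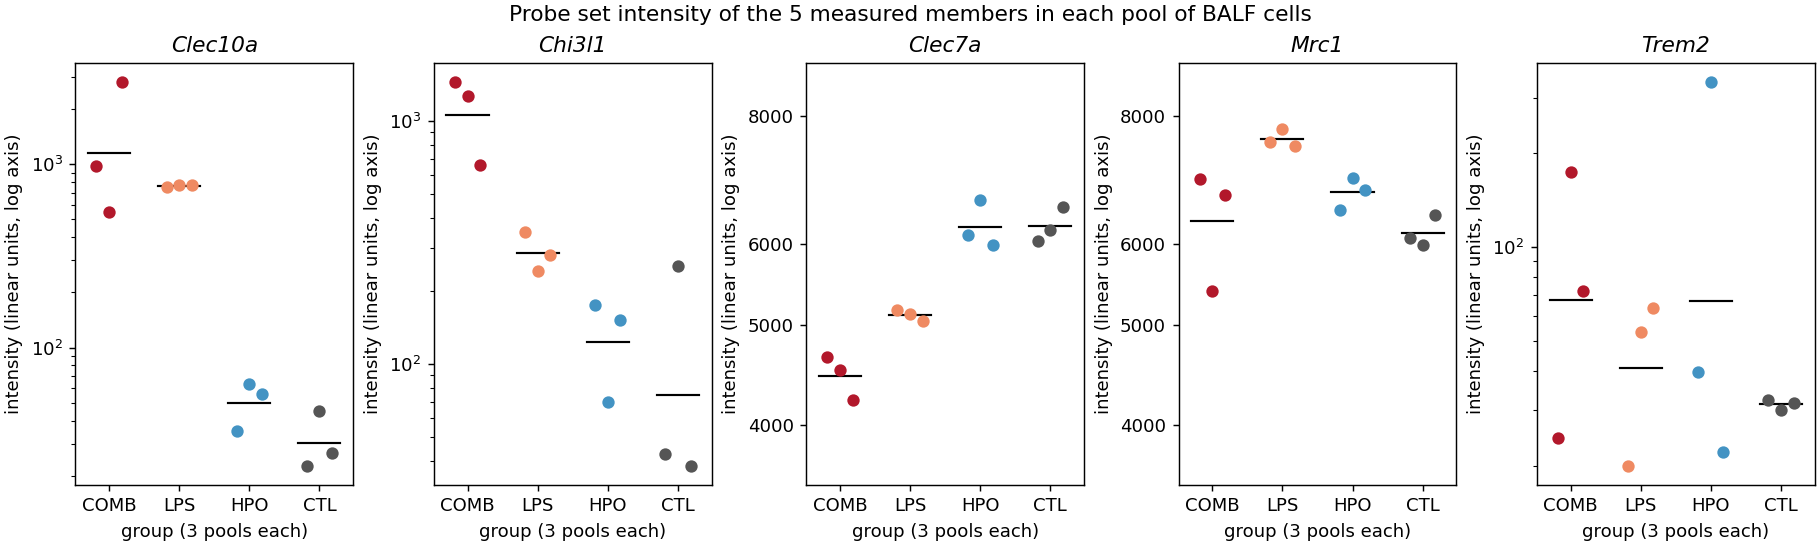
Intensity (linear units, log axis) of the 5 measured members in each of the 12 pools. Points are pools and lines are the group means on the log scale (n = 3 each). Clec10a was at 549 units or more in every pool that received LPS and at 63.1 or less in every other pool, whereas the Mrc1 and Clec7a panels span a narrow range.

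Clec10a encodes the macrophage galactose-type lectin, a C-type lectin that binds terminal galactose and N-acetylgalactosamine and is carried by macrophages and dendritic cells. The gene lies at chr10:55374914-55379110 of GRCr8. Its intensity was 982, 549 and 2792 units in the COMB pools of rats 2 and 3, rats 10 and 11, and rats 12, 13 and 14. It was 746, 769 and 771 units in the LPS pools, 35.2, 63.1 and 55.9 units in the HPO pools, and 22.8, 45.0 and 26.8 units in the CTL pools. The CTL values lay between the 41.8th and 55.5th percentile of their arrays and the HPO values between the 50.3th and 61.8th, near the middle of all probe sets. All 6 pools that received LPS were above all 6 that did not, with no overlap. The LPS pools lay close together, with a coefficient of variation of 1.84%, whereas the COMB pools spread widely around theirs, at 82.6%.

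The rise of Clec10a was 36.8-fold in COMB against CTL (log2 fold change 5.20 ± 0.46 SE, 95% interval of the fold 18.3 to 73.7, limma adjusted p = 3.77e-05), and its log2 fold change was 4.56 when the COMB pool of rats 12, 13 and 14 was left out. In LPS against CTL it was 24.5-fold (interval 12.2 to 49.0, limma adjusted p = 0.000857). In COMB against HPO it was 22.5-fold (log2 fold change 4.49, interval of the fold 11.2 to 45.2, limma adjusted p = 0.000158), with a log2 fold change of 3.85 when the same COMB pool was left out. The level in HPO pools was 1.63 times that in CTL pools and did not pass the test (interval 0.814 to 3.27, limma adjusted p = 0.715). COMB against LPS gave a log2 fold change of 0.59 with an interval of -0.41 to 1.59 (limma adjusted p = 0.433). The COMB pools lay on both sides of the LPS pools, and that fold change was -0.05 when the pool of rats 12, 13 and 14 was left out.

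The lists of other cell types were set beside Clec10a in the same pools, and the part of cell composition in its level was not tested. The airway epithelium sum was 19842 to 20987 units in HPO pools, in which Clec10a was 35.2 to 63.1 units, and 18065 to 20393 in LPS pools, in which Clec10a was 746 to 771 units. The neutrophil sum was 3258 to 3942 units in LPS pools and 4035 in the CTL pool of rats 5, 6 and 7, in which Clec10a was 45.0 units. The mean of the log2 levels of the neutrophil genes was 8.13 to 8.96 in COMB pools and 7.26 to 7.31 in LPS pools. It was at most 6.03 in HPO pools and at most 7.14 in CTL pools. By this mean every pool that received LPS was above every pool that did not, as for Clec10a. The dendritic cell list, cells that also carry this lectin, summed to 1641 to 1849 units in COMB pools, 1736 to 2277 in LPS pools, 1691 to 2190 in HPO pools and 2354 to 2440 in CTL pools. This sum was below that of every CTL pool in all COMB, LPS and HPO pools. The mean of the log2 levels of the listed genes was 6.29 to 6.49 in COMB pools and 6.19 to 6.31 in LPS pools. It was 6.33 to 6.60 in HPO pools and 6.43 to 6.76 in CTL pools, so only the LPS pools were all below the CTL pools in this list. Among its 9 genes tested, 0 were higher and 2 lower in COMB against CTL, with a median log2 fold change of -0.19 beside -0.026 over all genes.

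The 3 genes whose pattern was most like that of Clec10a were Saa3, Cp and Gpx2. Likeness was the root mean square difference of centred log2 values over the 12 arrays, and 12852 genes were compared. It was 0.624 for Saa3, an acute-phase apolipoprotein, 0.757 for Cp, the copper-carrying ferroxidase ceruloplasmin, and 1.03 for Gpx2, an epithelial glutathione peroxidase. A gene with no variation would have differed from Clec10a by 2.37. Saa3 averaged 3422 ± 388 units in COMB pools, 1517 ± 212 in LPS pools, 93.7 ± 12.1 in HPO pools and 82.4 ± 17.8 in CTL pools (SD, n = 3 each). Unlike Clec10a, Saa3 passed the test in COMB against LPS, at 2.26-fold (limma adjusted p = 0.0014). The difference between the 2 genes was not tested.

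Chi3l1 encodes a secreted chitinase-like lectin that binds chitin and heparin without cutting chitin. It is not itself a receptor, and is made by macrophages, neutrophils and epithelial cells. The gene lies at chr13:48193839-48201822 of GRCr8. The 250 bases before its start site are shown with those of Mrc1, because Chi3l1 rose in COMB while Mrc1 did not pass the test in any comparison. Both lie on the plus strand and come from RefSeq, build GRCr8, at chr13:48193589-48193838 for Chi3l1 and chr17:82157475-82157724 for Mrc1. Capitals mark the core GAGGAA of ETS factors such as PU.1, the macrophage lineage factor, read on the minus strand.
Chi3l1: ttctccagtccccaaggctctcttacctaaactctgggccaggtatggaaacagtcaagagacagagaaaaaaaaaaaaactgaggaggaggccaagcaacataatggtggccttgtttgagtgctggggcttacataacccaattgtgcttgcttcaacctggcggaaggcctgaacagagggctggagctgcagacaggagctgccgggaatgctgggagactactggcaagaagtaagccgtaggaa
Mrc1: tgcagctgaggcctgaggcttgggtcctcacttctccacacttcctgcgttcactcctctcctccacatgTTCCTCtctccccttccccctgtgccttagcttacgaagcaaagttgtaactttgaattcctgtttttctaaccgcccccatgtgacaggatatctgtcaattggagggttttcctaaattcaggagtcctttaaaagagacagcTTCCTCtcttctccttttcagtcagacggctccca
The windows were searched on both strands for ACGTG, the core of the hypoxia response element, for GAGGAA, for the AP-1 site TGANTCA, for the STAT site TTCNNNGAA and for the NF-kB site. Mrc1 held GAGGAA at positions -180 and -35 from the start and none of the others, and Chi3l1 held none of the 5. The windows of Clec7a and Trem2 overlap the annotated genes and are not printed. In the same search Clec7a held ACGTG at -129 and Trem2 held GAGGAA at -29, and neither held any of the others. Among 33469 promoters of the same length, 16.6% held ACGTG, 23.3% GAGGAA, 6.34% TGANTCA, 7.67% TTCNNNGAA and 6.33% the NF-kB site. These matches describe letters in the windows only.

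Chi3l1 intensity was 1443, 1263 and 656 units in the COMB pools of rats 2 and 3, rats 10 and 11, and rats 12, 13 and 14. It was 348, 242 and 280 units in the LPS pools, 174, 69.9 and 152 units in the HPO pools, and 42.6, 253 and 38.2 units in the CTL pools. Every COMB pool was above every other pool. The LPS and CTL ranges overlapped through the CTL pool of rats 5, 6 and 7, which was the pool with high neutrophil and monocyte sums. The COMB pool of rats 12, 13 and 14, highest for Clec10a, was the lowest COMB pool for Chi3l1. In the COMB pools of rats 2 and 3, rats 10 and 11, and rats 12, 13 and 14, the airway epithelium sum was 36421, 31560 and 27224 units, in the order of Chi3l1, and so was the alveolar epithelium sum, at 4960, 4160 and 3719 units. The alveolar macrophage sum, at 30549, 27684 and 26742 units, had this order too, but the mean of the log2 levels of its genes, at 9.75, 9.86 and 9.73, did not. The neutrophil sum, at 11404, 15168 and 8503 units, had another order, as had the recruited monocyte sum, at 6882, 11636 and 10226 units. Among CTL pools, that of rats 1, 3 and 4 had an airway epithelium sum of 11795 units and Chi3l1 at 42.6. That of rats 5, 6 and 7 had 11728 units and Chi3l1 at 253. These orders were not tested.

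The rise of Chi3l1 was 14.0-fold in COMB against CTL (log2 fold change 3.81 ± 0.605 SE, 95% interval of the fold 5.62 to 35.0, limma adjusted p = 0.00115) and 8.57-fold in COMB against HPO (interval 3.43 to 21.4, limma adjusted p = 0.00522). The fold was 3.8 in LPS against CTL (interval 1.52 to 9.48, limma adjusted p = 0.14) and 3.69 in COMB against LPS (interval 1.48 to 9.21, limma adjusted p = 0.0647), and neither passed the test. Both passed when the CTL pool of rats 5, 6 and 7 was left out (limma adjusted p = 0.00718 in LPS against CTL, limma adjusted p = 0.007 in COMB against LPS). COMB against LPS holds no CTL pool, so its fold stayed the same, and only the spread shared by the 4 groups and the adjustment changed. Without the CTL pool of rats 5, 6 and 7 the log2 fold change was 4.68 in COMB against CTL, in place of 3.81, and 2.80 in LPS against CTL, in place of 1.93. HPO against CTL gave 1.64-fold (interval 0.656 to 4.09, limma adjusted p = 0.816). In order of the group means, COMB at 1121 ± 412 units came before LPS at 290 ± 53.7, HPO at 132 ± 55.0 and CTL at 111 ± 123 units (SD, n = 3 each). The COMB and LPS pools did not overlap, nor did the LPS and HPO pools, a pair that was not tested, whereas the HPO and CTL pools overlapped.

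The 3 genes nearest to Chi3l1 in pattern were Ly6e, at a root mean square difference of 0.534, B3galnt1, a glycosyltransferase of globoside synthesis, at 0.553, and Ifitm3, an interferon-induced membrane protein that restricts viral entry, at 0.586. A gene with no variation would have differed by 1.62. Ly6e, an interferon-inducible surface protein, averaged 499.6 ± 70.1 units in COMB pools, 135 ± 24.6 in LPS pools, 72.1 ± 37.5 in HPO pools and 69.7 ± 73.2 in CTL pools (SD, n = 3 each).

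The neutrophil, recruited monocyte, T and NK cell, airway epithelium and alveolar epithelium lists had higher mean sums in COMB pools than in CTL pools, as Chi3l1 had. In COMB against CTL, 6 of 11 neutrophil genes were higher and 2 lower, with a median log2 fold change of 2.28. Of 8 recruited monocyte genes, 4 were higher and 0 lower, with a median of 1.97, and of 18 airway epithelium genes, 16 were higher and 0 lower, with a median of 2.12. Of 12 alveolar epithelium genes, 7 were higher and 0 lower, with a median of 1.29. Of 13 T and NK cell genes, 2 were higher and 0 lower in COMB against CTL, with a median of 1.67, and 8 were higher and 0 lower in COMB against LPS, with a median of 2.40. The T and NK cell sum was 1339 to 8318 units in COMB pools, 646 to 1079 in LPS pools, 919 to 1215 in HPO pools and 628 to 3319 in CTL pools, so the COMB and CTL ranges overlapped. The median over all genes was -0.026 in COMB against CTL and 0.005 in COMB against LPS. The part of these cells in the level of Chi3l1 was not tested.

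Clec7a encodes dectin-1, a C-type lectin that binds fungal beta-glucan and signals through Syk and Card9. The gene lies at chr4:164588737-164599953 of GRCr8. Its intensity was 4661, 4522 and 4236 units in the COMB pools, 5182, 5127 and 5049 units in the LPS pools, 6127, 6624 and 5987 units in the HPO pools, and 6043, 6192 and 6524 units in the CTL pools. Every COMB pool was below every LPS pool, and every LPS pool was below every HPO and CTL pool, whereas the HPO and CTL pools were intermingled.

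The fall of Clec7a was small in size but larger than the spread between pools. The level in COMB pools was 0.715 times that in CTL pools (log2 fold change -0.48 ± 0.0823 SE, interval of the fold 0.632 to 0.810, limma adjusted p = 0.00172) and 0.716 times that in HPO pools (limma adjusted p = 0.00248). It was 0.819 times in LPS against CTL (interval 0.723 to 0.928, limma adjusted p = 0.104) and 0.873 times in COMB against LPS (interval 0.771 to 0.989, limma adjusted p = 0.145). Neither of these passed the test, although the groups did not overlap. Non-overlap was common, at 26.5% of all probe sets in LPS against CTL and 34.2% in COMB against LPS. The level in HPO pools was 0.998 times that in CTL pools (interval 0.882 to 1.13).

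The sum of the alveolar macrophage markers was also lower in COMB pools, at 26742 to 30549 units. It was 32239 to 35523 in LPS pools, 32873 to 34215 in HPO pools and 33255 to 36084 in CTL pools. The mean of the log2 levels of these genes was 9.73 to 9.86 in COMB pools, below the 9.98 to 10.04 of CTL pools. By this mean the COMB pools overlapped the LPS pools, at 9.85 to 10.03, and the HPO pools, at 9.75 to 9.91. In COMB against CTL, 6 of the 15 alveolar macrophage genes were lower and 1 higher, with a median log2 fold change of -0.23. The part of cell composition in the level of Clec7a was not tested. The signalling partners of dectin-1 did not pass the test in COMB against CTL, with log2 fold changes of -0.23 for Syk (limma adjusted p = 0.112) and -0.27 for Card9 (limma adjusted p = 0.161).

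The pattern of Clec7a was shared by many genes. Of the 12852 genes compared, 56 differed from it by less than 0.1 in root mean square, where a gene with no variation would have differed by 0.21. The nearest were Itm2b, a membrane protein of the BRICHOS family, at 0.0556, Lims1, an adaptor of integrin adhesions, at 0.0595, and Luc7l2, a splicing factor, at 0.064. Lims1 averaged 1265 ± 91.8 units in COMB pools, 1454 ± 52.3 in LPS pools, 1843 ± 114 in HPO pools and 1904 ± 85.2 in CTL pools (SD, n = 3 each), and it passed the test in COMB against CTL (log2 fold change -0.59, limma adjusted p = 0.000875) and in LPS against CTL (-0.39, limma adjusted p = 0.0496).

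Mrc1 encodes the macrophage mannose receptor, CD206, an endocytic C-type lectin for mannose and fucose that marks resident alveolar macrophages. The gene lies at chr17:82157725-82239411 of GRCr8. Its intensity was 6946, 5404 and 6703 units in the COMB pools of rats 2 and 3, rats 10 and 11, and rats 12, 13 and 14. It was 7545, 7759 and 7471 units in the LPS pools, 6480, 6962 and 6777 units in the HPO pools, and 6082, 5985 and 6401 units in the CTL pools. The LPS pools were above all other pools, and the COMB pool of rats 10 and 11 was the lowest of all 12.

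No comparison of Mrc1 passed the test. The level in COMB pools was 1.03 times that in CTL pools (interval 0.881 to 1.19, limma adjusted p = 0.84). It was 1.23 times in LPS against CTL (interval 1.06 to 1.44, limma adjusted p = 0.165), 1.09 times in HPO against CTL (interval 0.940 to 1.27, limma adjusted p = 0.783) and 0.832 times in COMB against LPS (interval 0.714 to 0.968, limma adjusted p = 0.109). In each of these last 3 comparisons the groups did not overlap. In HPO against CTL, 15.6% of all probe sets did not overlap.

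**Figure D3:**
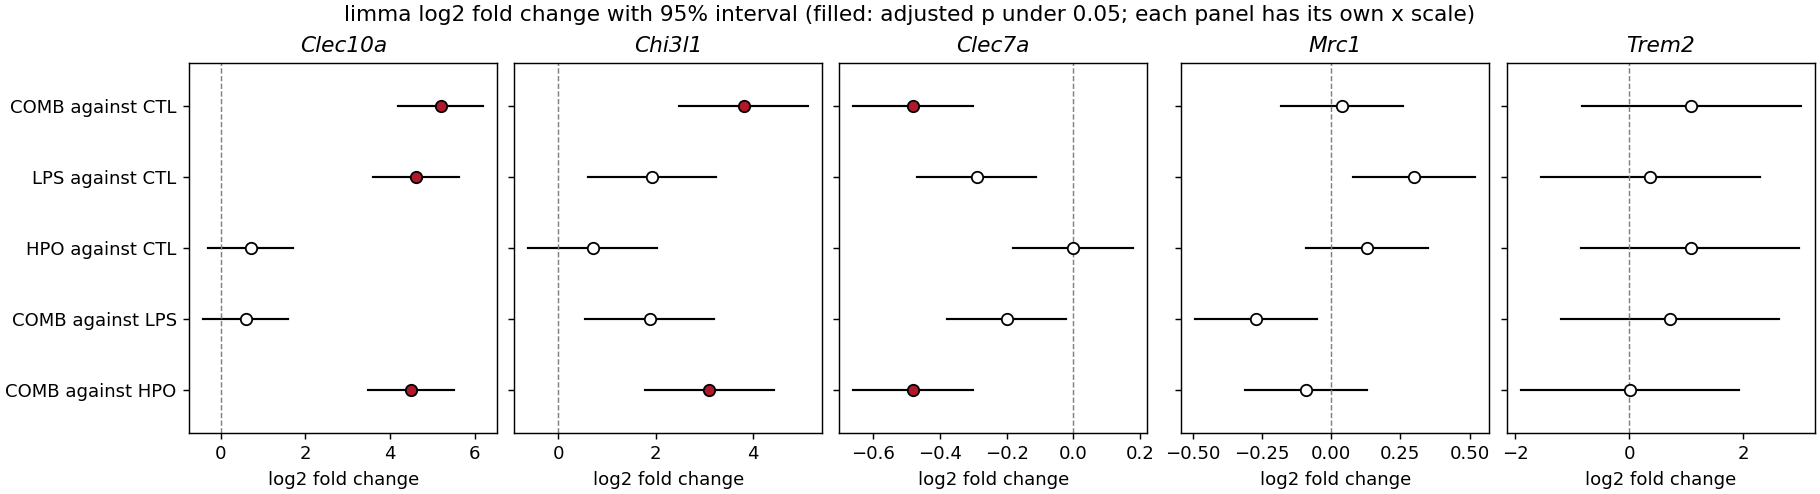
Log2 fold change (x axis, a scale of its own in each panel) of each measured member in 5 comparisons, with 95% intervals from limma. Filled points have an adjusted p under 0.05. Clec10a and Chi3l1 lie right of 0 and Clec7a left of 0 in COMB against CTL and COMB against HPO, and the intervals of Trem2 are the widest.

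Trem2 encodes a receptor for lipids and apolipoproteins that signals through the adaptor Tyrobp (DAP12) and marks lipid-handling macrophages. The gene lies at chr9:20145215-20151797 of GRCr8. Its intensity was 24.5, 174 and 72.5 units in the COMB pools, 20.0, 53.3 and 63.7 units in the LPS pools, 39.8, 336.5 and 22.1 units in the HPO pools, and 32.3, 30.1 and 31.8 units in the CTL pools. The CTL pools lay close together, with a coefficient of variation of 3.71%, while the HPO pools varied by 133%. The CTL values were between the 47.2th and 49.7th percentile of their arrays. The HPO pool of rats 2, 4 and 11 and the COMB pool of rats 10 and 11 were far above the other 10 pools.

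The other probe set of Trem2 gave the same pools as the highest. It read 27.3, 131 and 49.3 units in the COMB pools, 20.9, 45.1 and 56.3 units in the LPS pools, 27.6, 160.2 and 27.3 units in the HPO pools, and 25.9, 19.4 and 24.9 units in the CTL pools. With this probe set every COMB pool and every HPO pool was above every CTL pool, yet neither comparison passed the test (limma adjusted p = 0.226 for COMB and 0.696 for HPO). Over all probe sets tested, 36.6% did not overlap in COMB against CTL and 15.6% in HPO against CTL. Over the 12 arrays the centred log2 values of the probe sets differed by a root mean square of 0.354. The gene of nearest pattern, RT1-N2, differed from Trem2 by 0.746 and was looked up after the values of Trem2 were seen.

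**Figure D4:**
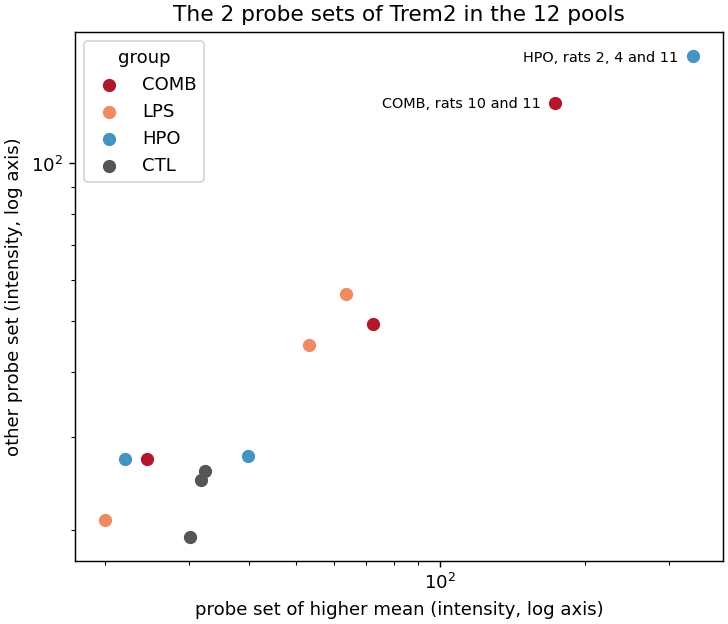
Intensity of the 2 probe sets of Trem2 (log axes, linear units) in the 12 pools, coloured by group. The HPO pool of rats 2, 4 and 11 and the COMB pool of rats 10 and 11 are highest on both axes, and the other 10 pools lie at 72.5 units or less on the x axis and 56.3 or less on the y axis.

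No comparison of Trem2 passed the test. The fold was 2.13 in COMB against CTL (interval 0.565 to 8.03, limma adjusted p = 0.437), 1.30 in LPS against CTL (interval 0.344 to 4.89, limma adjusted p = 0.902) and 2.11 in HPO against CTL (interval 0.560 to 7.95, limma adjusted p = 0.804). Without the HPO pool of rats 2, 4 and 11 the log2 fold change of HPO against CTL was -0.08. Of the pools high in Trem2, the COMB pool had 15168 units of the neutrophil list, the highest of all 12 pools, and the HPO pool 989, the lowest. The dendritic cell sum was the lowest of all 12 in both, at 1641 units in the COMB pool and 1691 in the HPO pool. By the mean of the log2 levels of those genes they were not the lowest, at 6.44 and 6.41 beside 6.19 to 6.31 in LPS pools. The B cell sum was 4852 units in the COMB pool and, as the highest of all 12, 5981 in the HPO pool. Most of that sum came from a single gene, Fcrla, which reached 5840 units in HPO pools. The mean of the log2 levels of the B cell genes was 7.59 in the COMB pool and 6.46 in the HPO pool. The part of cell composition in the level of Trem2 was not tested. Tyrobp averaged 4481 ± 432 units in COMB pools, 4373 ± 277 in LPS pools, 5040 ± 166.5 in HPO pools and 5214 ± 315 in CTL pools (SD, n = 3 each) and did not pass the test in COMB against CTL (log2 fold change -0.22, limma adjusted p = 0.137).

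Hypoxia added to LPS was read from COMB against LPS. Of the 5 members, 0 were called by limma, where 6.64% of all probe sets were called higher and 5.27% lower. An unadjusted p under 0.05 was found for 3, namely Chi3l1, Clec7a and Mrc1, and 1 reached 2-fold without a test. The share of all probe sets with an unadjusted p under 0.05 was not computed, here or for the interaction. The interaction asks whether the difference of COMB to LPS differed from that of HPO to CTL. It was called by limma for 0 members and for 0.136% of all probe sets, and 1 member had an unadjusted p under 0.05. That member was Mrc1, with an interaction of -0.40 on the log2 scale (interval -0.71 to -0.09, limma adjusted p = 0.283). The interaction was -0.12 for Clec10a (interval -1.54 to 1.30, limma adjusted p = 0.97) and 1.17 for Chi3l1 (interval -0.69 to 3.04, limma adjusted p = 0.625), so these intervals left a wide range of sizes.

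The members were set beside 6 lists of related genes, none of which holds a member. These lists named 122 genes, of which 85 were tested. In COMB against CTL, 10 of the 85 were higher and 14 lower, with a median log2 fold change of -0.03, where 8.84% of all probe sets were higher and 10.2% lower. In LPS against CTL, 1 was higher and 1 lower, where the shares over all probe sets were 0.868% and 1.18%. In HPO against CTL, 0 were called by limma, where 0.035% of all probe sets were called. An unadjusted p under 0.05 was found for 7 of the 85, and the share of all probe sets at that threshold was not computed.

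Among other scavenger receptors, 1 of 14 tested genes was higher and 3 were lower in COMB against CTL, with a median of -0.14. Cxcl16, the transmembrane chemokine that also takes up oxidised lipoprotein, rose 2.52-fold, to 939.7 ± 316 units in COMB pools against 365 ± 81.7 in CTL pools (limma adjusted p = 0.00133). Olr1, the lectin-like receptor of oxidised lipoprotein, fell to 394 ± 85.9 units in COMB pools, against 893 ± 17.9 in CTL pools (limma adjusted p = 0.00122). Cd36, the class B scavenger receptor for fatty acids and oxidised lipids, fell to 398 ± 40.9 units in COMB pools, against 709.7 ± 106 in CTL pools (limma adjusted p = 0.00102). Levels are mean ± SD (n = 3 each), here and in the lists that follow.

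Among other C-type lectins and Siglecs, 0 of 18 tested genes were higher and 2 were lower, with a median of 0.05. These were Clec12a, an inhibitory myeloid lectin, at 598 ± 67.3 units in COMB pools against 936 ± 129 in CTL pools (limma adjusted p = 0.00319), and Siglec10, an inhibitory sialic acid receptor, at 965 ± 122 units in COMB pools against 1418 ± 279 in CTL pools (limma adjusted p = 0.0324). Clec4a3, a myeloid lectin of the Dcir group named here after its values were seen, was at 472 to 1434 units in COMB pools against 392 to 449 in CTL pools and did not pass the test (limma adjusted p = 0.0561). In the list of the TREM family and ITAM signalling, 0 of 14 were higher and 1 was lower, the kinase Prkcd, at 725 ± 56.5 units in COMB pools against 918 ± 14.5 in CTL pools (limma adjusted p = 0.0274).

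Among soluble lectins, ligands and opsonins, 5 of 18 tested genes were higher and 1 was lower, with a median of 0.38. Sftpd, the surfactant collectin made by alveolar type II and airway cells, rose 5.59-fold, to 908 ± 339 units in COMB pools against 158 ± 39.3 in CTL pools (limma adjusted p = 6.3e-05). Lgals9, a galectin, rose 3.29-fold (limma adjusted p = 0.000978). Fcna, a ficolin that binds acetylated sugars, was at 328.5 ± 68.3 units in COMB pools against 508 ± 60.7 in CTL pools (limma adjusted p = 0.00957). The 16 airway epithelium genes that were higher moved with Sftpd, as did the alveolar epithelium list, which holds Sftpd itself and had 7 of 12 genes higher. Their part in its level was not tested.

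In the chitinase list, 2 of 7 genes were higher and 1 was lower, with a median of 0.05. Chia, the acidic chitinase, averaged 1268 ± 897 units in COMB pools, 505 ± 109 in LPS pools, 326 ± 129 in HPO pools and 101 ± 30.9 in CTL pools. Unlike Chi3l1 it passed the test in LPS against CTL, at 5.04-fold (limma adjusted p = 0.0265), as in COMB against CTL, at 10.7-fold (limma adjusted p = 0.000411), and the difference between the genes was not tested. Lgals3bp, a secreted scavenger-domain glycoprotein, rose 2.46-fold in COMB against CTL (limma adjusted p = 0.000258), and Ctbs, a lysosomal chitobiase, fell to 617 ± 41.4 units in COMB pools, against 1031 ± 24.6 in CTL pools (limma adjusted p = 0.000141).

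Among efferocytosis and Fc receptors, 2 of 14 genes were higher and 6 were lower in COMB against CTL, with a median of -0.26. Itgam, the alpha chain of complement receptor 3 that neutrophils and monocytes carry, rose 4.02-fold (limma adjusted p = 0.00393), and Fcgr2b, the inhibitory Fc receptor, rose 3.55-fold (limma adjusted p = 0.0123). Itgb5, an integrin chain used in dead-cell uptake, was at 85.3 ± 20.6 units in COMB pools against 184 ± 0.156 in CTL pools (limma adjusted p = 0.00338). Fcgr1a, the high-affinity IgG receptor, was at 389 ± 101 units in COMB pools, 391 ± 34.4 in LPS pools, 467.5 ± 45.4 in HPO pools and 722.5 ± 111 in CTL pools, and passed the test in COMB against CTL (limma adjusted p = 0.00344) and in LPS against CTL (limma adjusted p = 0.0284). Fcgr1a was the only lower gene of the 6 lists in LPS against CTL, and Chia the only higher one.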

How the data were processed

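The authors deposited intensities on a linear scale, a single value for every probe set of each scanned Affymetrix rat array. Their methods name the software but no normalization, so the intensities were taken as deposited and tested as log2 of the value plus 1. Array medians were 32.72 to 35.61. A probe set entered the tests if it exceeded the 20th percentile of the array on 3 or more arrays, and the 57 control probe sets did not enter. In the annotation, 20832 probe sets carried 1 gene, 436 carried several and 9831 carried none. A linear model with a mean for each group was fitted with limma (version 3.58.1, under R version 4.3.3), which left 8 residual degrees of freedom and added 3.94 of prior ones. Benjamini-Hochberg adjustment ran over all 25692 probe sets tested, with a threshold of 0.05. The fit was tested on simulated data. The number of arrays, 12, limits the precision.

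The genes named are the members, at most the 2 highest and 2 lowest called genes of each list in COMB against CTL, the 3 genes most like each called member, and marker genes set beside a result. Syk, Card9 and Tyrobp, as signalling partners, and Clec4a3 were added after the values were seen. Members and lists were chosen with earlier results of these data known. A total of 15 alternatives was listed, and others were added after the values were seen. RefSeq promoters (build GRCr8) were found for 4 of the 5 measured members, and 2 are printed.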

Additional observations from a re-analysis of the deposited data

How the results depend on the processing

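All calls of members held under every alternative except those named here. The fold criterion of the methods asks for a fold of at least 2 or at most 0.5. By it Clec7a was not called in COMB against CTL (0.715 times) or in COMB against HPO (0.716 times). Trem2 reached it in COMB against CTL, at 2.13-fold. With the methods' t-test, run unpaired, 1 member (Clec7a) was called in COMB against CTL, 0 in LPS against CTL and 0 in COMB against HPO. LPS against CTL called 2 members with a pseudocount of 16 (Clec7a added), 4 with array weights (Clec7a, Chi3l1 and Mrc1 added), 2 with a trended robust fit (Clec7a added) and 2 by the fold criterion, and 1 to 2 without single pools. COMB against LPS called 2 members with arrays centred on their medians and 2 with the trended robust fit (Clec7a and Mrc1), 1 with array weights (Mrc1), 1 in a fit of the groups compared (Chi3l1), 1 by the fold criterion, and 0 to 1 without single pools. HPO against CTL called 1 with array weights (Chi3l1) and 1 by the fold criterion. Calls over all 25692 probe sets moved as well. Array weights called 3702 in LPS against CTL, 3576 in HPO against CTL and 4635 in COMB against LPS, beside 525, 9 and 3060 as reported. In LPS against CTL the pseudocount of 16 called 669, the trended robust fit 692 and the t-test 1. In COMB against LPS the trended robust fit called 3129, centred arrays 3672 and the fit of the groups compared 1734. The t-test called 544 in COMB against CTL, beside 4895, and 17 in COMB against HPO, beside 4004. Omitting the HPO pool of rats 2, 4 and 11 and the COMB pool of rats 10 and 11, chosen after the values were seen, Chi3l1 in COMB against HPO had log2 2.57 (limma adjusted p = 0.063). Log2 values that changed sign had not passed the test. Trem2 in COMB against HPO was -0.05 with quantile normalization, -0.01 with centred arrays, -0.05 with a pseudocount of 16 and -0.77 to 1.17 without single pools. Mrc1 in COMB against CTL was -0.03 with centred arrays, -0.05 with array weights and -0.03 to 0.15 without single pools. Clec10a in the interaction was 0.07 with a pseudocount of 16, 0.07 with array weights, 0.07 with weights by rats, -0.76 to 0.41 without single pools and 0.58 without the pair of pools. Trem2 in the interaction was 0.82 with array weights, -1.14 to 0.79 without single pools and 0.12 without the pair. Without single pools, Trem2 in HPO against CTL was -0.08 to 1.86, Mrc1 in COMB against HPO -0.16 to 0.02, and Clec10a in COMB against LPS -0.05 to 1.12, and without the pair Trem2 in HPO against CTL was -0.08 and Mrc1 in COMB against HPO 0.04. The cause was not tested. With a replicate block by shared rat numbers, 1 member was called in LPS against CTL and 0 in HPO against CTL, with no call changed. Pools of the same numbers did not deviate together (correlations -0.008 to 0.039 for LPS and -0.162 to 0.054 for HPO), so these numbers were not taken to pair the LPS or HPO pools with the CTL pools, and COMB pools were not checked. The intensities carry no depth, so no counting interval can be given.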
